A study of Homo sapiens with 6 samples.

Results

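The ABCA lipid transporters followed here are the products of 7 genes, ABCA1, ABCA2, ABCA3, ABCA4, ABCA5, ABCA7 and ABCA12, out of 57905 genes counted and 12 protein-coding ABCA genes in the table. They were selected by symbol, through the pairs of symbol and Ensembl identifier in the deposited files, and the list was drawn up with results of these libraries known. Their differences between time points are therefore given as a description, with the statistics of the fit across all genes beside them. All 7 passed the low-count filter, and ABCA4, the member with the fewest counts, reached the filter's level in 4 of the 6 libraries, 2 of which were not Nut 10h libraries.

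RNA-seq libraries came from HCT116, a human colorectal carcinoma line with an intact p53 response. The cells received 10 µM Nutlin-3a, which blocks MDM2 and so frees p53, and were collected after 1 h (Nut 1h) or 10 h (Nut 10h), while control cells received only the vehicle DMSO (vehicle, Nut 0h). Each condition had 2 biological replicates of this 1 line, and no other genotype was included. The 6 libraries held between 26068076 and 35473485 counts, and the mitochondrial genome took 4.99% to 6.18% of them in vehicle cells, 8.15% to 8.44% after 1 h and 6.45% to 7.06% after 10 h.

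ABC transporters of subfamily A are large membrane proteins that use ATP to move lipids across or out of a membrane. ABCA1 hands cholesterol and phospholipids of the plasma membrane to apolipoprotein A-I, the first step in making high-density lipoprotein, and its gene is a textbook target of the oxysterol receptors LXR. ABCA7 is its closest relative in the family and moves phospholipids, ABCA2 and ABCA5 sit in endosomes and lysosomes, and ABCA3 loads surfactant phospholipids into the lamellar bodies of the lung. ABCA4 clears retinoid-phospholipid adducts in photoreceptors, and ABCA12 loads glucosylceramide into the lamellar granules of keratinocytes, the store from which the barrier of the skin is built. Several members are thus best known from tissues other than the colon.

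ABCA12 and ABCA1 had the largest differences of the family after 10 h, and ABCA7 is a GC-rich member with 1 of the highest counts, so the sequences at their starts are shown first. The promoter table of RefSeq (GRCh38.p14) covers 250 bases before to 50 bases after a gene's start and holds ABCA1, ABCA2, ABCA3, ABCA5, ABCA7 and ABCA12, and each entry was found at 1 place in GRCh37, the build of the counts. The ABCA1 entry lies at chr9:107690387-107690686 on the minus strand, the ABCA12 entry of the start farther upstream at chr2:216003300-216003599 on the minus strand, and the ABCA7 entry at chr19:1039856-1040155 on the plus strand. Capitals mark every match, on either strand, to the GC box (GGGCGG), the TATA box (TATAAA), the CCAAT box (CCAAT) and the E-box (CACGTG). Matches to an AP-1 site (TGACTCA) and to the 10-base unit of the p53 response element are marked as well. So is a direct repeat of AGGTNA and NGGTCA with 4 bases between them, a form of the layout to which LXR with RXR binds. The letters of these motifs may overlap.
ABCA1: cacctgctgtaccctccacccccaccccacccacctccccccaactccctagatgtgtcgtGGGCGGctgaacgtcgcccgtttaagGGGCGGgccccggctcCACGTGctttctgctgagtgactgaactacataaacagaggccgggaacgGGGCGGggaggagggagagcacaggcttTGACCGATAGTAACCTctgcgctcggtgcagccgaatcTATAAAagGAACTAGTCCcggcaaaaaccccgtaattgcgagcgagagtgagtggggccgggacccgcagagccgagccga
ABCA12: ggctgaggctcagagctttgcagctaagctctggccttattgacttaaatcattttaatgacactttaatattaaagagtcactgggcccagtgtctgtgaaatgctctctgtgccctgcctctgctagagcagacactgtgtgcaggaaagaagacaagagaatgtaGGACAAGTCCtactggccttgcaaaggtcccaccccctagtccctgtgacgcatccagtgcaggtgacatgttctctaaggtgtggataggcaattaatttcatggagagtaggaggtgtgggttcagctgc
ABCA7: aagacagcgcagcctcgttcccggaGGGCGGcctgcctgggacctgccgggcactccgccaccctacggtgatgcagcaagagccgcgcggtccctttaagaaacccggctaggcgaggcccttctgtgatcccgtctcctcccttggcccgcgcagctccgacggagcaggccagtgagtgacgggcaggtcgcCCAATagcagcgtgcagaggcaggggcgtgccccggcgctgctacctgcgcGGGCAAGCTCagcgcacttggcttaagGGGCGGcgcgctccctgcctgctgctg

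Counting the base before the start as -1 and the start as 1, the ABCA1 window held the direct repeat from base -69, a TATA box from base -31, an E-box from base -147, 3 GC boxes, and a p53 unit from base -23. The direct repeat was present in 33 of 35114 promoter windows of the table (0.094%), and no other member's window held it. The searched pattern is free at the 2 bases where the ABCA1 match departs from AGGTCA, and strict at the others. Nothing is therefore read from its presence in ABCA1, its absence from the other members' windows or its low share. Binding of LXR was not tested. The p53 unit was present in 2328 windows (6.63%). Among the members it was found in ABCA1, in ABCA7 from base -4, beside a CCAAT box from base -55, and in the upstream ABCA12 window from base -82. The upstream ABCA12 window held none of the other motifs, while a second ABCA12 entry, at chr2:215896761-215897060 on the minus strand, held an E-box, a TATA box and a CCAAT box and no p53 unit. GC boxes, present in 45.0% of all windows, numbered 6 in an ABCA2 window with a GC content of 86.7%, 2 each in those of ABCA3 and ABCA7, and 1 in that of ABCA5. The counts are per gene, so which ABCA12 start was used is not known from them, and a match is a run of letters, not a measured site.

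Each member's gene with 10 kb on both sides was also searched for the full 20-base p53 response element, made of a pair of the 10-base units with no spacer. No member had a copy with 0 or 1 mismatch. A copy with 2 mismatches, the C and G of each unit's core being kept, was found in an intron of each of 4 members. These are shown because ABCA12 and ABCA1 are among them, with capitals for the bases that fit the consensus.
ABCA12 (chr2:216002679-216002698, minus strand): GAGCgAGTCTtAACATGCCC
ABCA1 (chr9:107643287-107643306, minus strand): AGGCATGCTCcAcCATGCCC
ABCA4 (chr1:94569389-94569408, minus strand): AGGCAAGCCCcGGCATGTgC
ABCA7 (chr19:1054507-1054526, plus strand): GGACAgGTgCAAGCAAGCCT

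The ABCA12 copy is centred 661 bases inside the gene and the ABCA1 copy 47140 bases inside. Over the 817.7 kb searched, the 4 copies came to 4.89 per Mb, against 7.38 per Mb over all protein-coding genes. The second value covers the genes without flanks, so the 2 densities are of unlike sequence. The difference was not tested, and by locus the members ranged from no copy in ABCA2, ABCA3 and ABCA5 to 21.9 per Mb in ABCA7, which is 1 copy in a window of 45.6 kb. No p53 binding was measured in these libraries.

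ABCA12 (ENSG00000144452, GRCh37 chr2:215796266-216003349, minus strand) had the largest difference of the 7 members. Its raw counts were 30 and 23 in vehicle, 54 and 41 after 1 h, and 447 and 548 after 10 h. Normalised for library size by the TMM method, they came to 25.3 ± 5.23 (SD, n = 2) in vehicle, 52.9 ± 1.82 after 1 h and 471.1 ± 55.0 after 10 h. Every library of a later time point lay above every library of the earlier ones. The Nut 10h level was 18.6-fold that in vehicle (log2 fold change, log2FC, 4.21 ± 0.19 (SE), adjusted p = 2.8e-09, quasi-likelihood test of edgeR), and only 13 of the 16565 tested genes had a higher fold change. At Nut 1h it was 2.09-fold that in vehicle (log2FC 1.07 ± 0.25, adjusted p = 0.0019), a call lost with a correction for the GC content of transcripts (0.52, adjusted p = 0.094). In these bulk libraries, more cells with a transcript and more transcript per cell cannot be told apart. Of the genes overlapping ABCA12 on the other strand, SNHG31 shares 32034 bases with it and had at most 45 counts in a library.

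ABCA1 (ENSG00000165029, chr9:107543287-107690436, minus strand) was close to the lower end of detection before treatment, with 29 and 39 raw counts in vehicle and 53 and 30 after 1 h, and had 250 and 350 after 10 h. In normalised counts this was 32.3 ± 6.08, 45.5 ± 10.9 and 283.7 ± 59.4. Both Nut 10h libraries stood far above the other 4, and the lower Nut 1h library was only just above the higher vehicle library, at 37.8 against 36.6. The Nut 10h level was 8.74-fold that in vehicle, with a log2FC of 3.13 ± 0.23 and an adjusted p of 1.6e-07, the 55th highest fold change of the genes tested. At Nut 1h the log2FC of 0.51 ± 0.29 did not pass the threshold (adjusted p = 0.14).

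ABCA4 (ENSG00000198691, chr1:94458390-94586704, minus strand) was the least abundant member, with 11 and 8 counts in vehicle, 12 and 7 after 1 h and 26 and 28 after 10 h. The Nut 10h libraries were above the other 4, and the Nut 0h and Nut 1h libraries overlapped. Its log2FC after 10 h was 1.49 ± 0.41 (adjusted p = 0.014). With so few counts, leaving out replicate 2 of Nut 0h gave 1.26 with an adjusted p of 0.075, and DESeq2 gave it no adjusted p. At Nut 1h its log2FC was 0.22 ± 0.49 (adjusted p = 0.70), and the sign changed without replicate 2 of Nut 0h (-0.0078), without replicate 1 of Nut 1h (-0.039) and with a correction for transcript length (-0.028).

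ABCA2 (ENSG00000107331, chr9:139901686-139923367, minus strand) was the most abundant member. It had 11713 and 12201 raw counts in vehicle, 5117 and 4311 after 1 h, and 13923 and 12562 after 10 h. The normalised counts were 11388 ± 98.3, 5280 ± 206.2 and 12575 ± 1252. Both Nut 1h libraries lay below the other 4. The log2FC was -1.11 ± 0.10 after 1 h (adjusted p = 5.3e-07) and 0.14 ± 0.10 after 10 h (adjusted p = 0.29), the one member not past the threshold after 10 h. With the GC-content correction the Nut 1h value was 0.028 (adjusted p = 0.79). LINC02908 overlaps it by 1452 bases on the other strand and had at most 5 counts in a library.

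ABCA7 (ENSG00000064687, chr19:1039996-1065571, plus strand) followed ABCA2 in abundance and in shape. Its normalised counts were 4234 and 4374 in vehicle, 2128 and 2060 after 1 h, and 6417 and 5680 after 10 h. The 3 conditions did not overlap, Nut 1h being lowest and Nut 10h highest. The level fell by 1.04 on the log2 scale after 1 h (SE 0.10, adjusted p = 7.3e-07) and was 1.41-fold that in vehicle after 10 h (log2FC 0.49 ± 0.09, adjusted p = 0.0013). The GC-content correction turned the Nut 1h value to 0.18 (adjusted p = 0.086).

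ABCA3 (ENSG00000167972, chr16:2325882-2390747, minus strand) had the same order of conditions at a lower level, with 519 and 550 raw counts in vehicle, 335 and 296 after 1 h, and 698 and 687 after 10 h. The normalised counts were 509.0 ± 10.6, 354.3 ± 25.8 and 657.1 ± 25.1, with no overlap between conditions. Its log2FC values were -0.53 ± 0.11 after 1 h (adjusted p = 9.0e-04) and 0.37 ± 0.11 after 10 h (adjusted p = 0.019). The GC-content correction reversed the Nut 1h call, to 0.32 (adjusted p = 0.016). The Nut 10h call was lost without replicate 1 of Nut 0h (adjusted p = 0.087), without replicate 1 of Nut 10h (adjusted p = 0.058), with no low-count filter (adjusted p = 0.057) and with DESeq2 (adjusted p = 0.086). The pseudogene ABCA17P overlaps it by 1597 bases on the other strand and had at most 10 counts in a library.

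ABCA5 (ENSG00000154265, chr17:67240452-67323385, minus strand) went its own way. Its normalised counts were 191.3 and 192.5 in vehicle, 424.4 and 324.7 after 1 h, and 219.5 and 356.4 after 10 h. All 4 treated libraries were above both vehicle libraries, but replicate 1 of Nut 10h was only slightly above them, and the Nut 1h and Nut 10h libraries overlapped. The log2FC was 0.97 ± 0.20 after 1 h (adjusted p = 6.3e-04) and 0.59 ± 0.20 after 10 h (adjusted p = 0.040). With the GC-content correction the Nut 1h value was -0.0945 (adjusted p = 0.62). The Nut 10h value rested on replicate 2. Without that library it was 0.21 (adjusted p = 0.46), and with all libraries it also missed the threshold under RLE size factors, library totals, a filter of 1 CPM, limma-voom and DESeq2 (adjusted p = 0.051 to 0.071). Its last 536 bases are shared with ABCA10, on the same strand, which had at most 15 counts in a library.

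**Figure D1:**
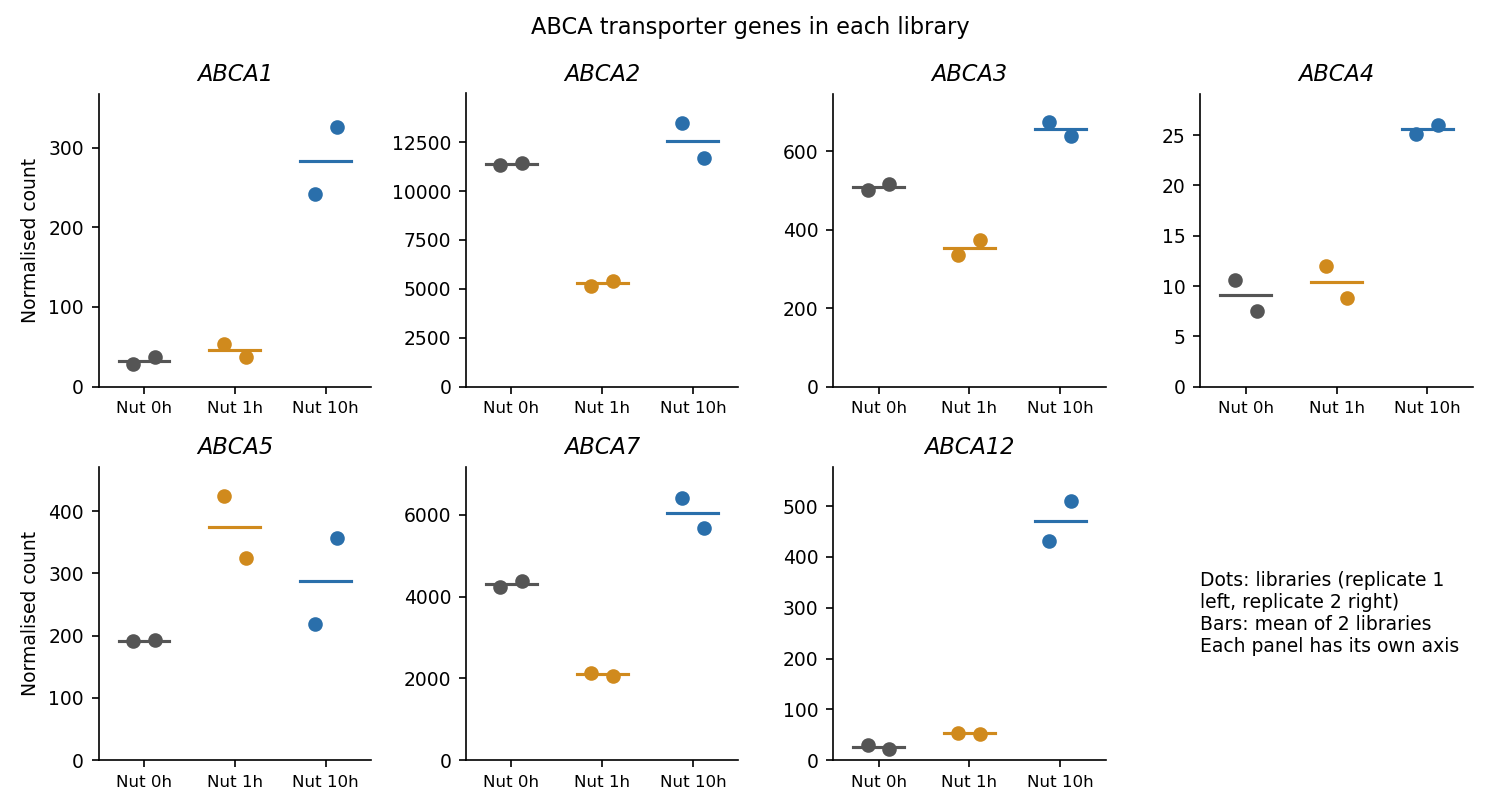
Normalised counts (vertical axis, TMM scaling, linear from 0) of the 7 ABCA genes in the Nut 0h, Nut 1h and Nut 10h libraries (horizontal axis); dots are libraries, bars are means of 2, and each panel has its own scale. ABCA1, ABCA4 and ABCA12 were highest after 10 h with little at the earlier times, ABCA2, ABCA3 and ABCA7 were lowest after 1 h, and ABCA5 was highest after 1 h, where its mean was 374.5.

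The levels of different members can be compared only per length, as normalised counts per kilobase of the longest transcript. At Nut 0h the order was ABCA2 (1397 ± 12.1), ABCA7 (625.3 ± 14.5), ABCA3 (77.1 ± 1.60), ABCA5 (23.3 ± 0.10), ABCA1 (3.10 ± 0.58), ABCA12 (2.72 ± 0.56) and ABCA4 (1.24 ± 0.30). The libraries of ABCA1 and ABCA12 overlapped, and all other neighbours in this order were separate. ABCA2 made up 65.8% and 65.4% of the members' summed level per kilobase in vehicle and ABCA7 29.2% and 29.6%, so the lysosomal transporter ABCA2 and ABCA7 accounted for nearly all ABCA transcript in vehicle-treated cells.

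At Nut 1h the summed level per kilobase was 1054 and 1071, against 2110 and 2150 in vehicle, and ABCA3 (53.7 ± 3.90) and ABCA5 (45.4 ± 8.54) overlapped and changed places when the coding length was used. The lower sum holds without the GC-content correction, with which the Nut 1h log2FC was 0.028 for ABCA2 and 0.18 for ABCA7. At Nut 10h the sum was 2786 and 2489. ABCA12 then followed ABCA3 (99.5 ± 3.80) at 50.7 ± 5.92 and above both libraries of ABCA5 (34.9 ± 11.7), which overlapped with ABCA1 (27.2 ± 5.70). ABCA12 and ABCA1 together still held a small share after 10 h, ABCA12 having 1.67% and 2.20% of the sum and ABCA1 0.83% and 1.26%. Their large fold changes thus added little to the total ABCA transcript.

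The other 5 ABCA genes were at or near 0, and none was tested. ABCA13 had no count in any library, which allows up to 0.0151 CPM (counts scaled to library size) over the 6 libraries, for counting error only. The raw counts per library did not exceed 2 for ABCA6, 2 for ABCA8 and 4 for ABCA9. ABCA10 had 2 to 15.

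Set side by side, 2 members were higher and 3 lower after 1 h than in vehicle past an adjusted p of 0.05, at a background of 34.5% of all tested genes higher and 32.3% lower. At Nut 10h 6 were higher and 0 lower than in vehicle, at a background of 14.1% and 14.9%. By DESeq2 the Nut 10h count was 3, ABCA1, ABCA7 and ABCA12, where it called 3786 genes in all, against 4810 by edgeR. At an unadjusted p under 0.05 the count of lower members was also 0. All 7 members had Nut 10h libraries that did not overlap with the vehicle libraries, which held for 61.4% of tested genes in either direction. Between 1 h and 10 h 6 were higher and 0 lower, at a background of 34.2% and 33.7%, and ABCA5 was the exception with a log2FC of -0.38 ± 0.19 (adjusted p = 0.089). It passed as lower with no low-count filter (adjusted p = 0.016), with only these 2 conditions in the fit (adjusted p = 0.045), without replicate 2 of Nut 1h (adjusted p = 0.046) and without replicate 2 of Nut 10h (adjusted p = 5.4e-04), and as higher with a correction for GC content (0.64, adjusted p = 6.6e-04). The vehicle libraries serve as control for both treated times, and the Nut 1h libraries enter both the first and the last comparison. The members' median log2FC was 0.22 after 1 h, 0.59 after 10 h and 1.27 between 1 h and 10 h, against 0.05, 0.00017 and -0.02 over all tested genes. With a correction for GC content the members' medians were 0.18, 0.54 and 0.64, against -0.02, -0.03 and -0.0014. Since the members were listed with results known, nothing is read from these counts.

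**Figure D2:**
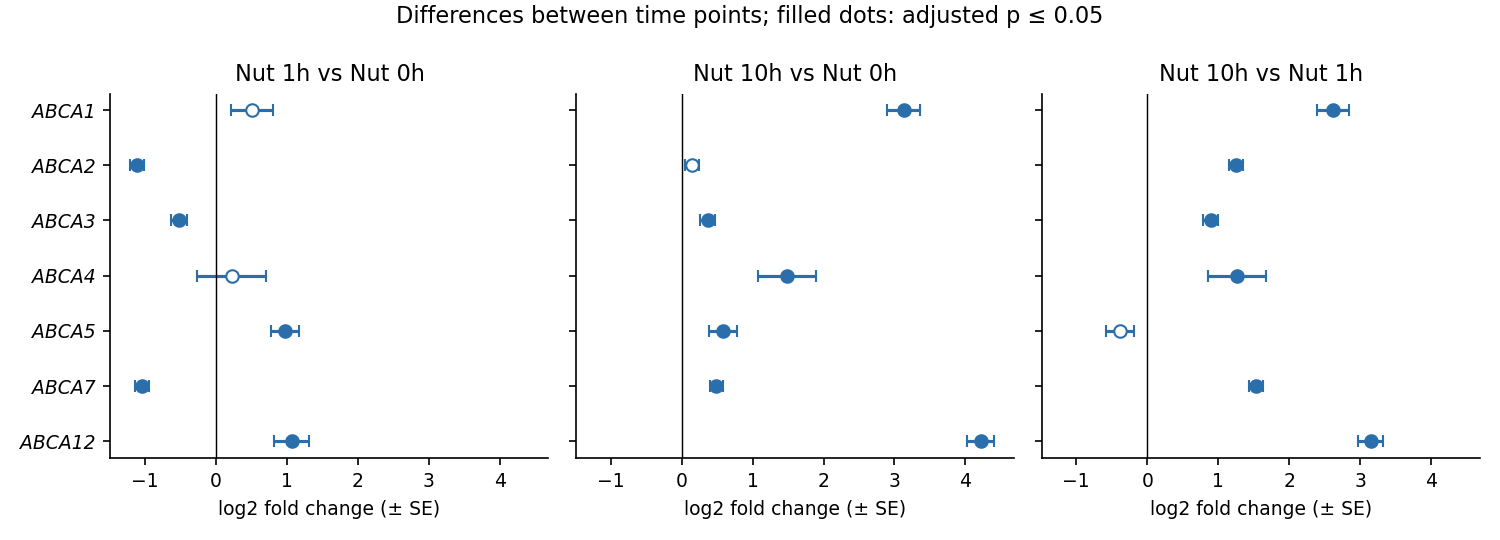
Log2FC values (horizontal axis, bars are SE) of the 7 ABCA genes in the 3 comparisons between time points; filled dots have an adjusted p of at most 0.05. ABCA12 and ABCA1 stand apart after 10 h with 4.21 and 3.13, and ABCA2, ABCA3 and ABCA7 are below 0 after 1 h.

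The Nut 1h libraries differed from the others in the GC content of the transcripts they held, and this moved with the members' values. Across all tested genes, the log2FC after 1 h had a Pearson r of -0.69 with the GC content of the longest transcript, and after 10 h of -0.03. The members range from 33.2% GC in ABCA5, 42.6% in ABCA12 and 45.5% in ABCA1 through 52.4% in ABCA4 to 60.4% in ABCA3, 63.7% in ABCA2 and 64.5% in ABCA7. Their order after 1 h was nearly that of their GC content, with r = -0.95 over the 7 genes, which share the same 4 libraries and are given as a description. After 10 h it was -0.51 over the 7.

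The correction given beside the members above took a smooth trend on GC content out of each library, as an offset in the fit. With it the Nut 1h values of ABCA2, ABCA3, ABCA5 and ABCA7 changed sign and that of ABCA12 kept its direction. 1 member, ABCA3, was then called after 1 h, against 45.3% of all tested genes. The Nut 10h values barely moved, with 4.18 for ABCA12, 3.09 for ABCA1 and 0.51 for ABCA7, and 6 members were called, where 39.1% of all tested genes were. Between 1 h and 10 h 5 members were called with the offset, where 57.8% of all tested genes were. The low point of ABCA2, ABCA3 and ABCA7 after 1 h and the high point of ABCA5 thus hold for library scaling without this correction, and whether the trend on GC content came from the libraries or from the cells was not tested.

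**Figure D3:**
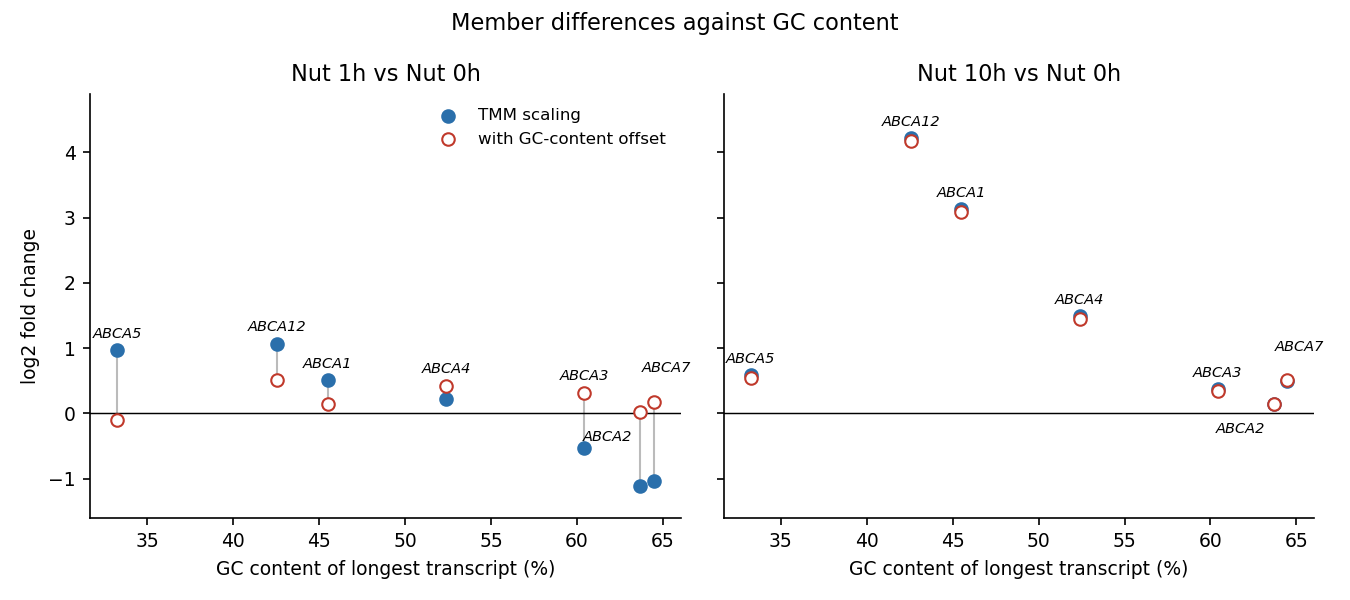
Log2FC values of the 7 ABCA genes (vertical axis) against the GC content of the longest transcript in percent (horizontal axis), after 1 h and after 10 h against vehicle; filled dots are from TMM scaling and open dots from the fit with the GC-content offset. At Nut 1h the dots of ABCA2, ABCA3, ABCA5 and ABCA7 cross 0 with the offset, and after 10 h those of ABCA1 and ABCA12 stay at 3.09 and 4.18.

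The sterol-sensing receptors and their targets were compared next, since ABCA1 is among the known targets of LXR. Of the 13 other genes of this list, 1 was higher and 2 lower after 10 h, with a median log2FC of 0.07, where 14.1% and 14.9% of all tested genes were higher and lower. The LXR genes NR1H3 (736.5 ± 45.4 against 710.7 ± 56.8 normalised counts) and NR1H2 (1429 ± 155.9 against 1444 ± 213.8) had adjusted p-values of 0.76 and 0.94. SREBF1, which drives fatty acid synthesis, fell by 0.47 in log2 units (adjusted p = 0.0067) and SCD, a fatty acid desaturase, fell by 0.57 (adjusted p = 3.0e-04), while the receptor gene RXRB rose by 0.33 (adjusted p = 0.022). ABCG1, a cholesterol exporter and another known LXR target, had only 15.3 ± 4.35 and 27.1 ± 6.77 normalised counts (adjusted p = 0.15). Its log2FC of 0.82 was the highest of the 13, against 3.13 for ABCA1. At Nut 1h 3 of the 13 were higher and 7 lower, among them MYLIP higher (0.97) and PLTP and SREBF1 lower (-1.26 and -1.16). With the GC-content offset 3 were higher and 1 lower, at a background of 20.0% and 25.3%. PLTP (-0.47, adjusted p = 0.060) and SREBF1 (-0.061, adjusted p = 0.52) were then not called. Between 1 h and 10 h 8 were higher, including ABCG1 (1.41), PLTP (1.34) and RXRA (1.10), and 2 lower, SCD (-1.0) and MYLIP (-0.97), and 3 and 4 with the offset, at a background of 29.0% and 28.8%. With the offset ABCG1 was not called (1.06, adjusted p = 0.052), and RXRA had 0.21 (adjusted p = 0.0145).

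For this and the following lists the shares of all tested genes called higher and lower were 14.1% and 14.9% after 10 h, 34.5% and 32.3% after 1 h (20.0% and 25.3% with the offset), and 34.2% and 33.7% between 1 h and 10 h (29.0% and 28.8% with the offset). Among 14 other ABC exporters of lipids, 9 were tested, and 3 were higher and 0 lower after 10 h, with a median of 0.32. The sterol transporter ABCG4 rose from 179.8 to 456.7 normalised counts (log2FC 1.34 ± 0.14, adjusted p = 5.3e-06), and ABCC3, which carries organic anions and bile salts, from 744.5 to 1157 (0.64 ± 0.12, adjusted p = 0.0012). By DESeq2, which called 3786 genes in all after 10 h, 3 were also higher and 0 lower, and 0 were lower at an unadjusted p under 0.05. At Nut 1h 1 was higher, the peroxisomal ABCD3 (0.93), and 4 lower, including ABCG4 (-1.20). Between 1 h and 10 h 6 were higher, including ABCG4 (2.55), and ABCD3 was lower (-0.98). With the GC-content offset 0 were higher and 4 lower after 1 h, ABCD3 having 0.14 (adjusted p = 0.11) and ABCG4 -0.40 (adjusted p = 0.040), and 5 were higher and 1 lower between 1 h and 10 h. Neither ABCG4 nor ABCC3 came near the fold changes of ABCA1 and ABCA12.

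Of 17 apolipoproteins and genes of lipoprotein handling, 9 were tested and 8, including APOA1, which encodes the partner of ABCA1, had too few counts. At Nut 10h 2 were higher and 0 lower, with a median of 0.08, and LCAT, which esterifies the cholesterol of lipoprotein particles, rose by 0.64 (adjusted p = 0.0019). By DESeq2 1 was higher and 0 lower, and 0 were lower at an unadjusted p under 0.05. At Nut 1h LIPG was higher (0.79), 5 were lower, including PLTP and the receptor gene SCARB1 (-0.84). With the offset 2 were higher and 2 lower, LIPG (0.35, adjusted p = 0.070) and PLTP (-0.47, adjusted p = 0.060) no longer being called. After 10 h, compared with 1 h, 6 were higher, including PLTP and LCAT (1.14), and LIPG was lower (-0.91). With the offset 3 were higher and 2 lower, LCAT no longer being called (0.24, adjusted p = 0.13).

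Of 23 genes of intracellular cholesterol and phospholipid transport, all tested, 4 were higher and 2 lower after 10 h, with a median of 0.12. VPS13C, a bridge protein for lipid transfer, rose by 1.21 ± 0.17 (adjusted p = 1.3e-04) and GRAMD1B, a sterol carrier, by 0.59 (adjusted p = 0.0064). TMEM97 fell by 0.58 (adjusted p = 2.8e-04) and OSBPL11 by 0.36 (adjusted p = 0.017). At Nut 1h 16 were higher, led by STARD4 (1.64) and VPS13A (1.41), and 5 lower, led by GRAMD1A (-1.82) and STARD5 (-1.14), at a background of 34.5% and 32.3%, against 6 and 4 with the GC-content offset. Compared with 1 h, after 10 h 7 were higher, led by GRAMD1A (2.02) and OSBPL5 (1.53), and 11 lower, led by STARD4 (-1.41) and TMEM41B (-1.38), against 8 and 7 with the offset.

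The ceramide and glucosylceramide route makes the cargo of ABCA12. Of 23 genes 18 were tested, and after 10 h 4 were higher and 2 lower, with a median of 0.19. ALOX12B, a lipoxygenase of the skin barrier, rose from 63.4 to 143.3 normalised counts (1.18 ± 0.20, adjusted p = 6.6e-04) and the ceramide synthase CERS5 from 831.2 to 1698 (1.03 ± 0.09, adjusted p = 1.5e-06). The desaturase DEGS1 fell by 0.60 (adjusted p = 3.1e-04). UGCG, which makes glucosylceramide, had 1492 ± 171.0 against 1425 ± 29.1 (adjusted p = 0.67), and CERS3, the ceramide synthase of the skin, was not tested. At Nut 1h 7 were higher, led by SPTLC2 (0.88) and SPTSSA (0.64), and 9 lower, including CYP4F22 (-1.19) and ALOX12B (-1.09), against 3 and 5 with the offset, where ALOX12B was not called (-0.39, adjusted p = 0.23). SPTSSA changed sign with the offset and was not called (-0.195, adjusted p = 0.081). After 10 h against 1 h, 10 were higher, including ALOX12B (2.26) and ALOXE3 (1.14), and 5 lower, led by DEGS1 (-1.09) and SPTLC2 (-0.76), against 10 and 4 with the offset.

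Flippases and scramblases outside the ABC family move phospholipids between membrane leaflets by other means. Of 15 tested genes, 4 were higher and 2 lower after 10 h, with a median of 0.05. ANO9, of the TMEM16 family, rose by 0.75 (adjusted p = 9.1e-05) and the flippase gene ATP10D by 0.51 (adjusted p = 0.024), while PLSCR1 fell by 0.48 (adjusted p = 0.0024) and MFSD2A by 0.38 (adjusted p = 0.029). At Nut 1h 6 were higher, led by TMEM30A (1.00) and ATP11B (0.90), and 2 lower, XKR8 (-1.28) and ANO9 (-0.96), against 3 and 4 with the offset, where ANO9 was not called (0.22, adjusted p = 0.084). ATP11B was not called with the offset either (0.14, adjusted p = 0.15), and TMEM30A had 0.23 (adjusted p = 0.0084). Relative to 1 h, after 10 h 3 were higher, led by ANO9 (1.71) and XKR8 (1.24), and 7 lower, including PLSCR1 (-0.65), against 4 and 2 with the offset. PLSCR1 changed sign with the offset and was not called (0.15, adjusted p = 0.16). Of the 85 tested genes on the 6 lists, each counted once, the offset turned the sign of 30 after 1 h (19 of them called without it), of 3 after 10 h (0 called) and of 21 between 1 h and 10 h (11 called). Those called in opposite directions with and without it, named after their values were seen, included LCAT, ACBD3 and KDSR after 1 h, and SREBF1, SPTSSA and LIPA between 1 h and 10 h.

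**Figure D4:**
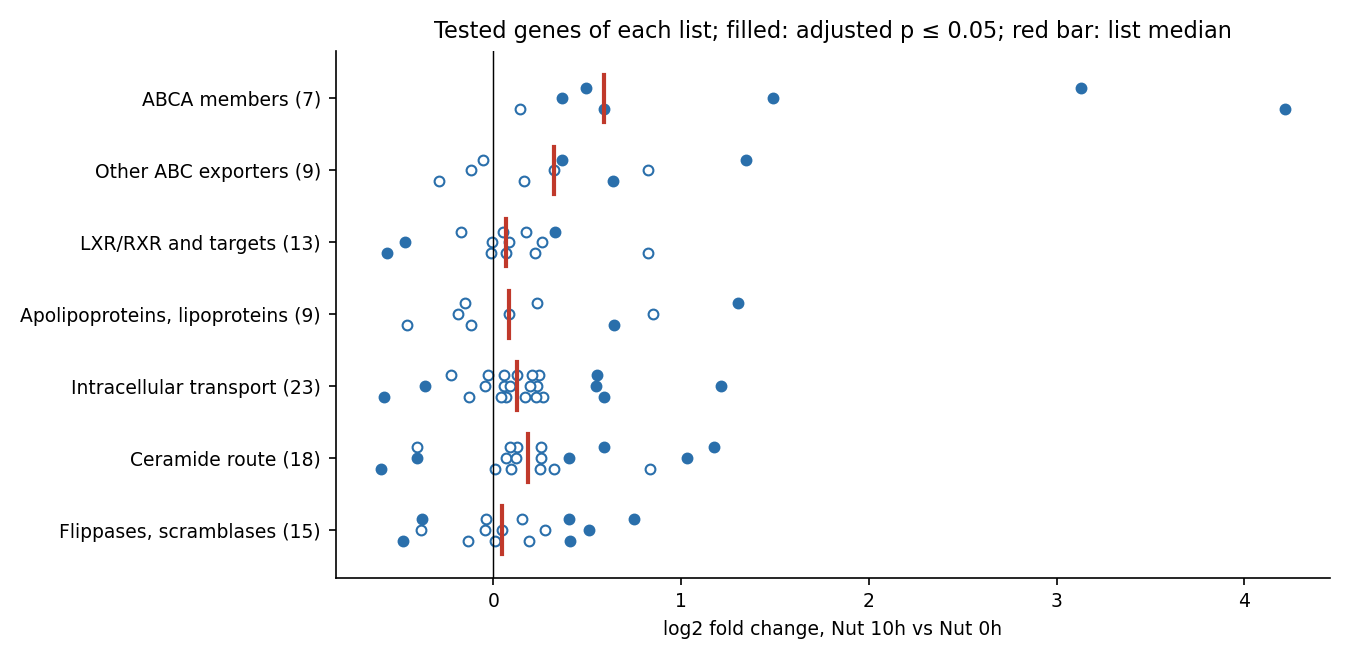
Log2FC values after 10 h against Nut 0h (horizontal axis) of the 7 ABCA members and of the tested genes of 6 lists (rows, number of genes in brackets); filled dots have an adjusted p of at most 0.05 and red bars are medians. ABCA12 (4.21) and ABCA1 (3.13) lie to the right of every gene of the 6 lists. PLTP and ABCG1 belong to 2 lists each.

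The p53 response itself was present. MDM2, a p53 target and its inhibitor, had 1886 ± 279.1 normalised counts in vehicle, 8597 ± 136.8 after 1 h and 25290 ± 3756 after 10 h. CDKN1A, the p53 target that stops the cell cycle, had 9958 ± 949.0, 10282 ± 628.7 and 142606 ± 4137, with a log2FC of 3.84 ± 0.11 after 10 h. Its log2FC after 1 h was 0.046 (adjusted p = 0.70), and 0.70 with the GC-content offset (adjusted p = 3.0e-06). ABCA12 differed by more than CDKN1A on this scale from a far lower level, and like CDKN1A it differed more after 10 h than after 1 h.

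None of the tested nearest protein-coding genes that do not overlap a member was called higher after 10 h, where 14.1% of all tested genes were. With so few neighbours, nothing is read from this. Beside ABCA12 lie BARD1, 121859 bases away, which fell by 1.94 after 10 h (adjusted p = 1.7e-06), and ATIC, 173330 bases away, with -0.05 (adjusted p = 0.71). Beside ABCA1 lie SLC44A1, 316467 bases away, with -0.24 (adjusted p = 0.082), and NIPSNAP3B, with at most 2 counts. ABCA7 has CNN2 929 bases and HMHA1 351 bases away, with 0.06 (adjusted p = 0.67) and -0.29 (adjusted p = 0.094) after 10 h. ABCA2 has CLIC3 (-0.08, adjusted p = 0.80) and FUT7, with at most 2 counts, as neighbours. ABCA3 lies between RNPS1, which fell by 0.44 (adjusted p = 0.0054), and CCNF, which fell by 1.93 (adjusted p = 5.0e-09). ABCA4 lies between GCLM, which fell by 0.27 (adjusted p = 0.039), and ARHGAP29 (0.12, adjusted p = 0.46). Beyond ABCA10, which overlaps it and was not tested, ABCA5 lies between ABCA6 and MAP2K6, each with at most 2 counts.

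Over the 6 libraries, the genes whose log2(CPM + 1) values were most like a member's were sought among 11576 tested genes with a mean of at least 100 normalised counts. ABCA12 was closest to NTPCR, SPATA7 and SESN1 (Pearson r 0.998, 0.998 and 0.997), ABCA1 to AFAP1, PCGF3 and SAT1 (0.997, 0.996 and 0.996), and ABCA4 to TOB1, PLAU and FAM134B (0.993, 0.991 and 0.991). ABCA2 was closest to SLC41A3, KIFC2 and DLL1 (1.000, 1.000 and 0.999), ABCA7 to AGRN, SLC16A5 and MAN2C1 (1.000, 0.999 and 0.999), ABCA3 to PRPF40B, KIAA0895L and WASH7P (0.999, 0.998 and 0.998) and ABCA5 to SKAP2, COL4A4 and RAB33B (0.991 for the first and the second, 0.989 for the last). Within the family, ABCA1 and ABCA12 had r = 0.99, ABCA4 and ABCA12 0.98, ABCA3 and ABCA7 0.98, ABCA2 and ABCA7 0.97, and ABCA2 and ABCA5 -0.71. These are descriptions of 3 conditions in 6 libraries, without the GC-content correction. In them the members fall into the same sets as above, 1, 4 and 12, then 2, 3 and 7, then 5. Both groupings come from the same values, so 1 is no support for the other. With the correction, the Nut 1h log2FC was -0.0945 for ABCA5, against 0.028, 0.32 and 0.18 for ABCA2, ABCA3 and ABCA7. The split of these 4 members thus holds only without it.

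Markers of the cell types in which members are best known were counted as well. Of the 10 markers of colorectal epithelium 6 were tested, with KRT8, KRT18, KRT19, EPCAM, CDH1 and CDX2 all well detected, CDX2 being lowest with a mean of 474.5 after 1 h, while VIL1, CDX1, LGALS4 and CEACAM5 were not tested. Their summed level was 164244 to 193489 in vehicle, 111990 to 121871 after 1 h and 206189 to 247120 after 10 h. After 1 h 2 of the 6 were called higher, EPCAM (log2FC 0.46) and CDH1 (0.51), and 4 lower. With the GC-content offset 1 was higher and 1 lower, EPCAM no longer being called (0.015, adjusted p = 0.90). After 10 h KRT19 was called higher (0.87) and EPCAM lower (-0.32, adjusted p = 0.024). Of 10 markers of differentiated keratinocytes 3 were tested, KRT1, LOR, IVL and TGM3 had no count, and the sum was 875.2 to 1134 in vehicle, 629.1 to 677.1 after 1 h and 898.9 to 955.2 after 10 h, mostly from KRT10. Of 8 alveolar type 2 markers 3 were tested, SFTPA1 had no count, and the sum was 203.8 to 227.1, 174.6 to 187.5 and 462.1 to 504.4, mostly from LAMP3. Of 8 macrophage markers 3 were tested, none was at 0 in all libraries, and the sum was 45.1 to 111.1, 23.1 to 25.2 and 57.7 to 58.0. Of 9 retina markers 4 were tested, RDH8 was among those with no count, and the sum was 395.2 to 423.5, 587.7 to 700.3 and 453.2 to 481.5. Of 6 fibroblast markers 2 were tested, DCN and LUM had no count, and the sum was 1351 to 1406, 789.1 to 824.7 and 1215 to 1314. Of 6 hepatocyte markers 1 was tested, TTR and HP had no count, and the sum was 62.8 to 67.6, 57.2 to 59.2 and 137.7 to 147.0. The sums of the alveolar type 2 and hepatocyte markers, which came mostly from LAMP3 and SERPINA1, were higher after 10 h, as were ABCA12 and ABCA1. Outside the epithelial list, 5 tested markers were called higher after 10 h, LAMP3 (log2FC 1.74), SERPINA1 (1.20), ITGAM (1.71), PDGFRB (1.33) and FLG (2.73), the last 3 at means of 8.84 to 22.5 normalised counts, and 1 was called lower, LYZ (-4.55, adjusted p = 8.2e-04). By DESeq2 the keratinocyte and fibroblast lists had 0 genes higher and the macrophage list 0 lower. The calls of FLG, PDGFRB and LYZ were thus lost with that tool. Within these lists other markers had values of the opposite sign. CSF1R beside ITGAM had -0.34, COL1A1 beside PDGFRB had -0.16, and KRT10 beside FLG had -0.24, none of them past the threshold. The part of these markers in the result was not tested.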

How the data were processed

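The authors' reads from 6 HCT116 libraries were trimmed with Trim Galore 0.6.6, aligned to GRCh37.p13 with STAR 2.7.0f and counted per gene with featureCounts (Subread 2.0.0), per the submitters' processing notes. The deposited values are raw counts for 57905 genes. The annotation used for counting, the strand setting, the treatment of reads mapping to several places and the model formula are not given in the sources used here, so members with overlapping genes are uncertain. The paper names an Ensembl GRCh37 annotation for start sites and for gene set enrichment, without tying it to the counting. The second deposited file holds the authors' own DESeq2 1.36.0 comparisons (log2 fold changes and p-values), of which only the gene symbols and identifiers were used.

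The members and all gene lists were chosen with earlier results of these data known. Counts were filtered with filterByExpr (16565 genes kept), scaled by TMM and tested with edgeR 4.0.16 (quasi-likelihood, R 4.3.3), condition being the only term, over all 6 libraries with 3 residual degrees of freedom. P-values were adjusted by Benjamini-Hochberg over all tested genes and called at 0.05 or below. SE is the log2 fold change divided by the square root of F. Normalised counts are counts over the TMM library size times its mean, and CPM values use the same library sizes. The replicates of a condition differed by 5.13 to 16.7 chi-square units per degree of freedom, more than counting error alone would give. This value cannot tell separate cultures from repeated libraries of the same RNA. The labels call the libraries biological replicates. Transcript lengths and GC content came from GENCODE lifted to GRCh37 and covered 97.4% of tested genes, and GC-content and length offsets are loess trends (span 0.4) per library. The script was tested on simulated data. Alternatives were other scalings, filters, tools (DESeq2 1.42.0, limma 3.58.1), offsets, the replicate block, the 2 conditions alone, and each replicate left out.

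Genes named are the members, CDKN1A and MDM2, the other ABCA genes, the nearest protein-coding gene not overlapping on each side, at most 2 called rises and 2 falls per list and comparison with a mean of at least 50 normalised counts, and the 3 genes most like each member. Some genes that this rule would name are not reported here. NR1H2, NR1H3, ABCG1, UGCG, CERS3 and APOA1 were named for their roles, and genes overlapping a member, single cell-type markers and list genes with opposite calls for other reasons, after their values were seen. Figures were drawn with matplotlib 3.10.9.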

Additional observations from a re-analysis of the deposited data

Results flagged for a closer look

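For 6 members the Nut 10h and Nut 1h levels stood apart in the fit across all genes (edgeR's quasi-likelihood test), which equals the difference of the 2 treatment effects since both share the Nut 0h control. The members were listed with this comparison known, so the values are a description and not a test of the family. The log2 difference was 3.15 for ABCA12 (adjusted p = 3.8e-09) and 2.62 for ABCA1 (adjusted p = 1.9e-07), 3.66 and 2.94 with the GC-content offset. It was 1.53 for ABCA7 (adjusted p = 1.2e-08), 1.25 for ABCA2 (adjusted p = 9.2e-08) and 0.89 for ABCA3 (adjusted p = 7.3e-06), for which the offset gave 0.33, 0.12 (adjusted p = 0.19) and 0.02 (adjusted p = 0.88). It was 1.27 for ABCA4 (adjusted p = 0.014), on 7 to 28 counts a library, and 1.02 with the offset (adjusted p = 0.045). It missed the threshold without replicate 2 of Nut 1h (adjusted p = 0.092), with the offset and the replicate block together (1.03, adjusted p = 0.055) and by DESeq2 (adjusted p = 0.15). Over all tested genes, 34.2% were called in this direction.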

How the results depend on the processing

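Of 332 log2 fold changes of the members over 18 alternative settings, 295 kept their direction and their side of the threshold. With the GC-content offset, the members called at Nut 1h went from 5 to 1 and the genes called on the pathway lists from 65 to 37. ABCA2 (0.028), ABCA3 (0.32), ABCA5 (-0.0945) and ABCA7 (0.18) changed sign at Nut 1h, and ABCA5 changed sign from Nut 1h to Nut 10h (0.64). With the GC-content offset and the replicate block together, 1 member and 7200 genes (from 11077) were called at Nut 1h, the 4 sign changes were 0.030, 0.32, -0.092 and 0.18, and ABCA5 from Nut 1h to Nut 10h had 0.63. There 4 members (from 6) and 9334 genes (from 11246) were called from Nut 1h to Nut 10h, ABCA2, ABCA3 and ABCA4 missing the threshold. ABCA4 at Nut 1h was -0.028 with the length offset and ranged from -0.039 to 0.49 with 1 replicate left out. DESeq2 called 3 members (from 6) and 3786 genes (from 4810) at Nut 10h, ABCA4 having no adjusted p there. The cause of these shifts beyond the correction itself was not tested. The replicate block alone gave 5, 6 and 6 members in the 3 comparisons and changed no member's call. Over all genes it called 10979, 4893 and 11189, against 11077, 4810 and 11246 without it. The labels give the replicate numbers no shared batch, and the correlation of replicate 1's deviation was -0.31 between Nut 0h and Nut 1h, 0.45 between Nut 0h and Nut 10h and -0.28 between Nut 1h and Nut 10h. No scaling moved the median of all tested genes by over 0.1. Depth limits ABCA4, ABCA1 and ABCA12 before 10 h.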
